A study of Homo sapiens with 12 samples.

Results

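The contrast described here asks whether inhibiting AKT and EZH2 together changed each transcript by more or by less than the 2 single treatments predicted. It was computed in C4.2B cells, a castration-resistant prostate cancer line derived from LNCaP, by subtracting both single-agent levels from the combination level and adding back the DMSO level, all as log2 values. All 16646 genes that passed an expression filter, of 58735 in the count table, were members. The 4 arms held 3 libraries each: DMSO vehicle; the AKT inhibitor ipatasertib at 0.25 µM (AKTi); the EZH2 inhibitor tazemetostat at 1 µM, begun 6 days earlier (EZH2i); and both agents on the same schedule. Every arm was moved to medium with charcoal-stripped serum at day 0, so androgen was depleted in the controls as well, and RNA was taken 24 hours later. The plates were seeded in triplicate from 1 line, so p-values measure the spread between these plates only.

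AKT is a kinase downstream of PI3K that promotes growth, glucose use and survival, and it keeps FOXO transcription factors out of the nucleus. EZH2 is the methyltransferase of Polycomb repressive complex 2 (PRC2), which places the repressive H3K27me3 mark, and that mark is lost slowly as cells divide. ATF4 is the transcription factor of the integrated stress response, which is translated when amino acids run short or the endoplasmic reticulum (ER) is under stress, and which raises genes for amino acid synthesis, amino acid uptake and tRNA charging. On the log2 scale an interaction of 0 means that the fold change in the combination is the product of both single-agent fold changes. A gene that each agent lowers can therefore fall further in the combination and still have an interaction of 0.

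Library totals ran from 14133755 to 22276417 counts. Normalization factors from the trimmed mean of M values (TMM) ran from 0.929 to 0.937 in DMSO, from 0.965 to 0.979 with AKTi, from 1.03 to 1.04 with EZH2i and from 1.05 to 1.09 in the combination, so composition moved with the arm. Levels are given in CPM, counts scaled to one common library size after TMM adjustment, which are compared between arms and not between genes. All 10 prostate luminal markers were at 1 CPM or more in DMSO. Their summed level was 4365 to 4529 CPM in DMSO, 7012 to 7086 with AKTi, 7322 to 7670 with EZH2i and 9873 to 10050 in the combination. None of 4 immune markers reached 1 CPM in DMSO, and the summed level of those 4 stayed at or below 1.65 CPM in all 12 libraries. Of 4 basal markers 1 reached 1 CPM in DMSO, and their sum went from at most 3.98 CPM in DMSO to as much as 20.7 CPM in the combination. The part of marker shifts in the results was not tested. In bulk RNA a change in the mix of cell states and a change within each cell cannot be told apart.

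Genes that departed from the additive prediction were common, but few were shown to depart by more than 1.5-fold. The interaction was called for 4688 genes, which is 28.2% of those tested (edgeR quasi-likelihood test, Benjamini-Hochberg adjusted p below 0.05). The value was below 0 for 2909 genes (17.5%) and above 0 for 1779 genes (10.7%). Over all genes tested the median was -0.05, with quartiles at -0.36 and 0.25. Only 456 genes (2.74%) passed a test against a minimum size of 1.5-fold, 286 below 0 and 170 above. For 6502 genes (39.1%) the whole 95% interval lay inside 1.5-fold in either direction, and the median width of that interval was 0.66 on the log2 scale. At the threshold itself, SF3A3 was the last gene called, with an interaction of 0.23 and an adjusted p of 0.0499. APBB2 was the first gene left out, at 0.42 and 0.0501.

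Called genes were sorted by the sum of the single-agent log2 fold changes and by the combination against DMSO. The sum differed from 0 for 9608 genes (57.7%), and the combination differed from DMSO for 12186 genes (73.2%). More than additive, with interaction and sum of the same sign, were 1069 genes (6.42%), 811 with a sum below 0 and 258 with a sum above 0. Less than additive were 2353 genes (14.1%), 939 with a sum below 0 and 1414 above. Reversed, with the combination called on the opposite side of DMSO from the sum, were 174 genes (1.05%), 91 that the agents together predicted to fall and 83 that they predicted to rise. For the remaining 1092 genes (6.56%) the sum was not distinguishable from 0. The interaction and the sum were estimated from the same DMSO and single-agent libraries, so noise in those libraries pushes the 2 estimates apart in sign and favors the less than additive and reversed groups.

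**Figure D1:**
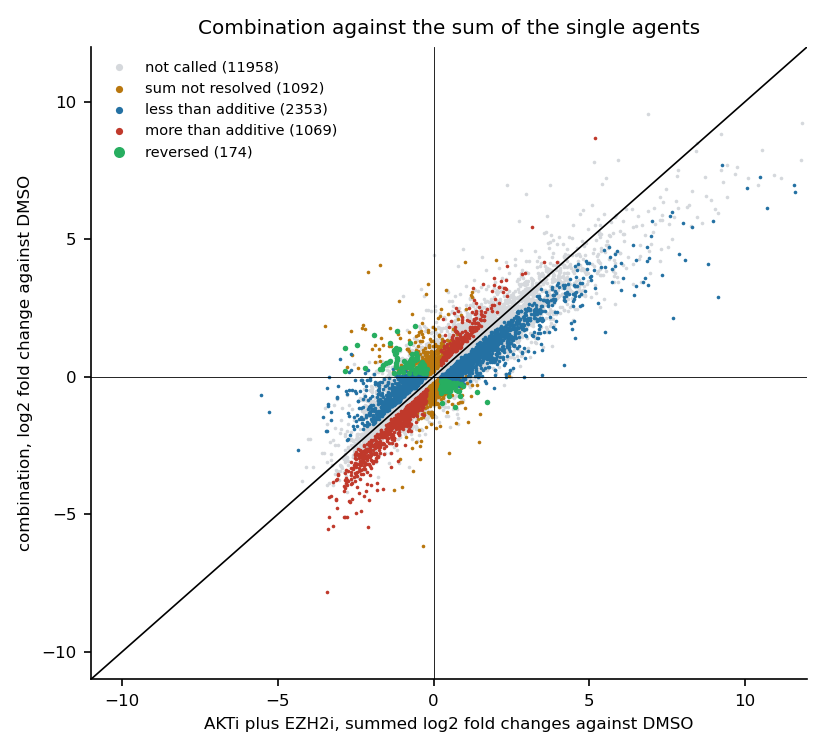
Each point is 1 of 16646 genes, with the summed log2 fold changes of AKTi and EZH2i against DMSO on the horizontal axis and the log2 fold change of the combination against DMSO on the vertical axis. The diagonal marks additivity. The 174 reversed genes (green) lie in the upper left and lower right quadrants, and the 1414 less than additive genes with a positive sum lie below the diagonal. Points far to the right are genes nearly silent in DMSO, whose fitted folds depend on the prior count.

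The sizes differed between these groups. Among the 811 more than additive genes with a falling sum, the median was -0.98 for the sum and -1.49 for the combination. The corresponding medians of the 258 rising genes were 0.77 and 1.32. Among the 1414 less than additive genes with a rising sum, the median was 0.54 with AKTi, 0.79 with EZH2i, 1.31 for the sum and only 0.67 for the combination. The median of the 91 reversed genes with a falling sum was -0.68 for the sum and 0.37 for the combination. These medians describe groups that the sorting itself defined. Across all genes tested, 5845 (35.1%) had a combination level called beyond both single agents in 1 direction.

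Each agent's own effect could also be read with and without the other agent. Alone, AKTi raised 3429 and lowered 3643 of the 16646 genes, and EZH2i raised 5421 and lowered 5249. AKTi had called effects in opposite directions without and with EZH2i for 647 genes (3.89%). EZH2i had called effects in opposite directions without and with AKTi for 413 genes (2.48%). The AKTi comparison is made from 4 arms with no library in common between its 2 sides.

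The 5 reversed genes with the largest positive interactions were CHAC1, TRIB3, DDIT3, SLC7A11 and FAM129A. CHAC1 (ENSG00000128965), an enzyme that degrades glutathione, lies at chr15:40952962-40956519 in hg38. Its level was 19.8, 22.4 and 20.0 CPM in the DMSO libraries. It was 8.39, 9.81 and 10.1 CPM with AKTi and 13.5, 10.6 and 11.7 CPM with EZH2i. In the combination it was 59.3, 61.9 and 57.6 CPM. Both single agents lay below DMSO in every library, and the combination lay above all 9 other libraries. The product of the single-agent folds predicted 5.43 CPM, which gives an 11.0-fold excess (interaction 3.46 ± 0.15 SE, adjusted p = 3.54e-20).

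TRIB3, a pseudokinase that is itself a target of ATF4, stood at 225, 216 and 241 CPM in DMSO. It was 123, 133 and 129 CPM with AKTi, and 59.5, 47.7 and 62.7 CPM with EZH2i. In the combination it was 250 to 271 CPM, just above the DMSO range and clear of both single agents. Its interaction was 3.03 ± 0.10 (SE, adjusted p = 2.93e-23), while the combination exceeded DMSO by only 1.15-fold. Without DMSO replicate B or AKTi replicate A the call against DMSO was lost and the gene sorted as less than additive.

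DDIT3, which encodes the stress transcription factor CHOP, rose past its starting level by a wider margin. It was 26.1, 30.9 and 24.8 CPM in DMSO, 19.0, 19.2 and 19.3 CPM with AKTi and 14.6, 16.9 and 19.4 CPM with EZH2i. The combination libraries held 87.7, 85.3 and 86.3 CPM. No combination library overlapped any other arm, and the level was 3.18-fold that of DMSO against a predicted 11.9 CPM (interaction 2.84 ± 0.13 SE, adjusted p = 3.88e-19).

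SLC7A11, the cystine-glutamate antiporter, fell from 327, 315 and 345 CPM in DMSO to 97.6, 116 and 114 CPM with EZH2i. With AKTi it was 231, 217 and 198 CPM. In the combination it was 407, 388 and 433 CPM, above every DMSO library (interaction 2.52 ± 0.09 SE, adjusted p = 3.51e-22). FAM129A, also named NIBAN1 and raised by cellular stress, was 56.1, 57.8 and 65.0 CPM in DMSO and 228, 210 and 213 CPM in the combination, with an interaction of 2.46 ± 0.10. The EZH2i libraries of FAM129A, at 50.8, 56.3 and 59.6 CPM, overlapped DMSO.

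**Figure D2:**
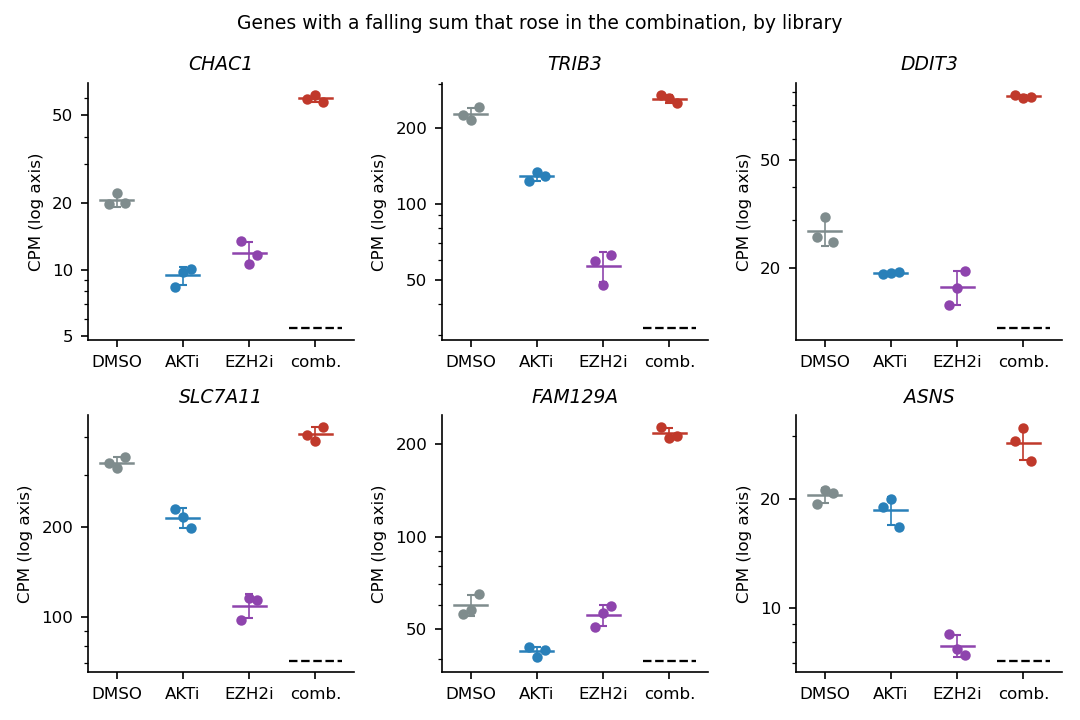
CPM (log axis) of 6 ATF4-type stress genes in the 12 libraries. Points are libraries, bars the mean ± SD of 3 libraries, and the dashed line the level that the product of the single-agent folds predicts for the combination. In all 6 panels the 3 combination points lie above DMSO while the dashed line lies below every measured library.

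These genes belonged to a group whose members mostly moved the same way. The list was chosen with earlier results of these data known, so its counts are a description and not independent support. Of 30 ATF4-responsive genes tested, the interaction was called above 0 for 29 and below 0 for none, against 10.7% and 17.5% of all genes. The median interaction was 1.85, against -0.05 over all genes. The median was -0.36 with AKTi, -1.17 with EZH2i and 0.30 in the combination. By class, 16 were reversed, 10 less than additive and 2 more than additive, and for 1 the sum was not resolved. ATF5 was the member with no call (interaction 0.23, adjusted p = 0.135), and it was called without AKTi replicate C. The call above 0 was made for 28 to 30 members under every alternative normalization, filter, tool and left-out library, and for 28 on the linear scale.

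The same contrast can be read as each agent's effect with and without the other, and for many of these genes the direction turned. AKTi alone lowered 22 of the 30 genes and raised 2. In cells already given EZH2i, AKTi raised 29 and lowered none. EZH2i alone lowered 25 and raised 3, whereas on top of AKTi it raised 21 and lowered 6. The AKTi effect was called in opposite directions for 21 of the 30 genes and the EZH2i effect for 16, against 3.89% and 2.48% of all genes.

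ATF4 itself followed the pattern at the transcript level. It was 723, 717 and 703 CPM in DMSO, 620, 633 and 628 CPM with AKTi, 422, 411 and 431 CPM with EZH2i, and 1089, 1079 and 1028 CPM in the combination. The 4 arms did not overlap, and the interaction was 1.53 ± 0.07 (SE, adjusted p = 3.79e-19). Since ATF4 is controlled largely through translation, its mRNA does not report its activity. ASNS, which makes asparagine, was 19.4, 21.2 and 20.9 CPM in DMSO and 7.4 to 8.44 CPM with EZH2i. The combination brought it to 28.9, 31.6 and 25.5 CPM (interaction 2.02 ± 0.16), a level with no overlap with DMSO. ATF4 and ASNS were chosen after their values were seen.

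Other members reached different end points. FGF21, a hormone released by stressed cells, had the largest interaction of the list at 4.86 ± 0.77, but it never exceeded 1.82 CPM in any library and DESeq2 gave it no adjusted p. GDF15, a stress cytokine, was more than additive in the main fit and in 15 of 21 alternatives. In the rest, the linear scale and 5 fits without 1 library, its sum was not resolved. It was 124, 116 and 120 CPM in DMSO, 83.5, 87.9 and 95.3 CPM with AKTi, 218, 180 and 207 CPM with EZH2i and 521, 541 and 464 CPM in the combination (interaction 1.77 ± 0.09). ATF3, another stress-induced transcription factor, rose from 24.2, 24.6 and 20.9 CPM in DMSO to 109, 112 and 102 CPM in the combination, while AKTi alone lowered it (-0.24) and EZH2i alone raised it (0.43), so that the sum was not resolved (interaction 2.03 ± 0.12).

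Cytosolic aminoacyl-tRNA synthetases, the enzymes that load amino acids onto tRNA and that ATF4 can raise, shared part of this pattern. The interaction was called above 0 for 12 of 20 and below 0 for 4, against 10.7% and 17.5% of all genes, with a median of 0.59. The count below 0 was 2 without DMSO replicate B and 1 without AKTi replicate C or on the linear scale. Against a minimum size of 1.5-fold, 7 were called above 0 and none below. SARS, the seryl-tRNA synthetase, had the largest value at 1.59 ± 0.08 (adjusted p = 1.04e-18). It was 368, 348 and 345 CPM in DMSO, 314, 309 and 301 CPM with AKTi, 182, 165 and 182 CPM with EZH2i and 478, 462 and 448 CPM in the combination. SARS, AARS (interaction 1.29) and CARS (1.28) were reversed, 9 others including GARS (1.44) were less than additive, 3 were more than additive and 1 had an unresolved sum. AKTi alone lowered 15 of the 20 and raised none, and in the presence of EZH2i it raised 12 and lowered 7. EZH2i alone lowered all 20, and on top of AKTi it still lowered 14 and raised 4. Of all 16646 genes, AKTi in the presence of EZH2i raised 3506 and lowered 4271, and EZH2i on top of AKTi raised 5344 and lowered 5343.

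The promoters of some of these genes hold the composite ATF4 and C/EBP site in its plain form, TGATGCAA, and are shown because the genes moved together. RefSeq windows from 250 bases before to 50 bases after the start site (GRCh38.p14) were matched by symbol for 11603 of the 16646 genes, using the first window listed. The 8 letters occurred on either strand in 59 of these (0.508%). They occurred in 6 of the 16 matched synthetase promoters (37.5%), in 2 of 25 matched ATF4-responsive promoters (8.0%) and in 6 of 76 matched reversed genes with a falling sum (7.89%). Among matched less than additive genes they occurred in 11 of 750 with a falling sum (1.47%) and 4 of 1072 with a rising sum (0.373%). None of 673 matched more than additive genes with a falling sum held them. The same was true of 217 more than additive and 67 reversed genes with a rising sum. At a share of 0.508% few matches were to be expected in such groups. In the lines below, written 5′ to 3′ on the strand of the gene, the capitals mark the match, which in all 5 is the reverse complement of the letters given.
CHAC1 (chr15:40953222-40953309, plus strand): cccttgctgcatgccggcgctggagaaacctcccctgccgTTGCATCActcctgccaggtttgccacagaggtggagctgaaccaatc
AARS (chr16:70289646-70289733, minus strand): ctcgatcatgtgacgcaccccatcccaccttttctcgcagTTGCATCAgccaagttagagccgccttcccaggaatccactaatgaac
CARS (chr11:3057394-3057465, minus strand): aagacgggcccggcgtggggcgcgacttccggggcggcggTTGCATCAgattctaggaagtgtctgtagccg
MARS (chr12:57488024-57488097, plus strand): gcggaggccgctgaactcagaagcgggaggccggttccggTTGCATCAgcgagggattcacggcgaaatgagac
IARS (chr9:92293668-92293750, minus strand): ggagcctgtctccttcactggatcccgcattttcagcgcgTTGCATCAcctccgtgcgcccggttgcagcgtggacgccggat

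In CARS, MARS and IARS the match began 2, 4 and 13 bases before the annotated start site, and in CHAC1 and AARS 209 and 187 bases before it. A match is a description of letters in a window and is no evidence of binding in these cells. CHAC1, AARS and CARS were reversed, while MARS (interaction 0.84) and IARS (0.79) were less than additive. Other reversed genes with a match were FUT1, NCOA7 and TBL1X.

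The other stress lists were split. Of 24 ER chaperones and unfolded protein response genes, 13 had interactions called below 0 and 6 above, with a median of -0.25. The share called was 79.2%, beside 28.2% of all genes. ERN1, the ER stress sensor IRE1, was 46.1, 55.3 and 54.3 CPM in DMSO, 45.6 to 58.9 CPM in the 6 single-agent libraries and 127, 130 and 130 CPM in the combination (interaction 1.39 ± 0.10). DNAJB9 (1.06), a co-chaperone, and HERPUD1 (0.87), a factor in ER-associated degradation, went the same way. SDF2L1, a chaperone of the ER lumen, went the other way, at 59.9, 57.7 and 58.8 CPM in DMSO and 13.4, 16.1 and 13.2 CPM in the combination (interaction -0.89 ± 0.14).

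Among 26 p53 target genes the interaction was called above 0 for 13 and below 0 for 3, with a median of 0.47. The share called was 61.5%, beside 28.2% of all genes. SESN2, a stress-induced inhibitor of mTORC1 signaling, went from 45.7, 43.7 and 49.7 CPM in DMSO to 111, 109 and 104 CPM in the combination, whereas the single agents had 32.1 to 38.0 CPM (interaction 1.98 ± 0.10). CDKN1A, which encodes the CDK inhibitor p21, moved in opposite directions with the 2 agents. It was 81.8, 75.5 and 72.4 CPM in DMSO, 41.0, 44.8 and 49.6 CPM with AKTi and 137, 129 and 139 CPM with EZH2i. In the combination it reached 186, 179 and 164 CPM (interaction 1.15 ± 0.09). PMAIP1, the BH3-only protein NOXA, stayed below DMSO in the combination despite an interaction of 1.72. SESN2 and GDF15 are also members of the ATF4-responsive list.

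For HIF-1 targets outside glycolysis, 8 of 29 were called above 0 and 3 below, a share of 37.9% beside 28.2% of all genes, and the median interaction was -0.01. VEGFA, the angiogenic growth factor, was reversed. It stood at 103, 95.5 and 97.1 CPM in DMSO, 73.1, 69.3 and 67.9 CPM with AKTi, 61.9, 53.4 and 60.3 CPM with EZH2i and 175, 171 and 175 CPM in the combination (interaction 2.06 ± 0.09). STC2, a secreted glycoprotein, and DDIT4, an inhibitor of mTORC1, were also reversed, with interactions of 1.99 and 1.43. DDIT4 and STC2 are shared with the ATF4-responsive list. P4HA2, a collagen prolyl hydroxylase, had an interaction of 1.08 with an unresolved sum.

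Among the more than additive genes with a falling sum, several of those furthest below the product of the single-agent folds act in DNA replication. UHRF1 (ENSG00000276043, chr19:4903080-4962154 in hg38), which brings DNA methylation to newly copied DNA, was 77.1, 78.0 and 85.9 CPM in DMSO. It was 59.7, 64.1 and 62.7 CPM with AKTi and 24.2, 26.7 and 22.4 CPM with EZH2i. In the combination only 1.88, 1.61 and 1.93 CPM remained. The 4 arms did not overlap, and the combination lay 10.4-fold below the predicted 18.9 CPM (interaction -3.38 ± 0.15 SE, adjusted p = 2.24e-19).

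CLSPN, an adaptor of the replication checkpoint, went from 38.0, 35.0 and 40.1 CPM in DMSO to 1.37, 0.807 and 1.69 CPM in the combination. The single-agent ranges were 20.8 to 23.0 CPM for AKTi and 11.9 to 13.6 CPM for EZH2i (interaction -2.53 ± 0.21). DTL, a substrate adaptor of a ubiquitin ligase in S phase, had an interaction of -2.45 ± 0.22. FAM111B, a protease of the nucleus, had -2.44 ± 0.13, and E2F2, a transcription factor of S phase entry, had -2.34 ± 0.32. All 5 were below both single agents in each combination library. Their choice by rank in this class favored that, since 797 of its 811 genes had a combination called beyond both agents. The share over all genes was 35.1%.

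Of 44 G1/S and DNA replication genes, 29 had interactions called below 0 and none above, all 29 more than additive on the log2 scale, against 6.42% of all genes, a direction that turned on the linear scale. Of the 29, 16 passed the test against a minimum size of 1.5-fold. The median was -0.81 with AKTi, -1.36 with EZH2i and -2.84 in the combination, with a median interaction of -0.58. Each agent lowered nearly the whole list, since AKTi lowered 43 of 44 and EZH2i all 44. Among all 16646 genes AKTi lowered 3643 and EZH2i lowered 5249. RRM2, the small subunit of ribonucleotide reductase, was 180, 172 and 182 CPM in DMSO, 71.7, 73.8 and 68.5 CPM with AKTi and 54.8, 65.3 and 63.6 CPM with EZH2i. The combination left 4.97, 5.36 and 5.26 CPM, clear of every other library (interaction -2.24 ± 0.12). E2F8, a repressor of the E2F family, had an interaction of -2.22 ± 0.27.

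Mitotic genes also fell with each agent and fell furthest in the combination, AKTi lowering 47 of the 48 and EZH2i 47. Of 48 tested, 42 were called below 0 on the log2 scale, all more than additive and none below 0 on the linear scale, and 1 above, the checkpoint gene BUB3, which was named after its value was seen. Only 7 of the 42 passed the test against a minimum size of 1.5-fold. The median was -1.33 with AKTi, -0.89 with EZH2i and -2.87 in the combination, and the median interaction was -0.67. CDK1, the kinase that drives entry into mitosis, was 616, 564 and 561 CPM in DMSO, 191, 178 and 169 CPM with AKTi, 185, 209 and 183 CPM with EZH2i and 27.6, 29.6 and 28.3 CPM in the combination (interaction -1.06 ± 0.09). The single-agent ranges overlapped each other and not the combination. AURKB, the kinase of the chromosomal passenger complex, had an interaction of -1.27 ± 0.18, NUSAP1, a spindle protein, -1.22 ± 0.25, and ANLN, a scaffold of the cleavage furrow, -1.05 ± 0.09.

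**Figure D3:**
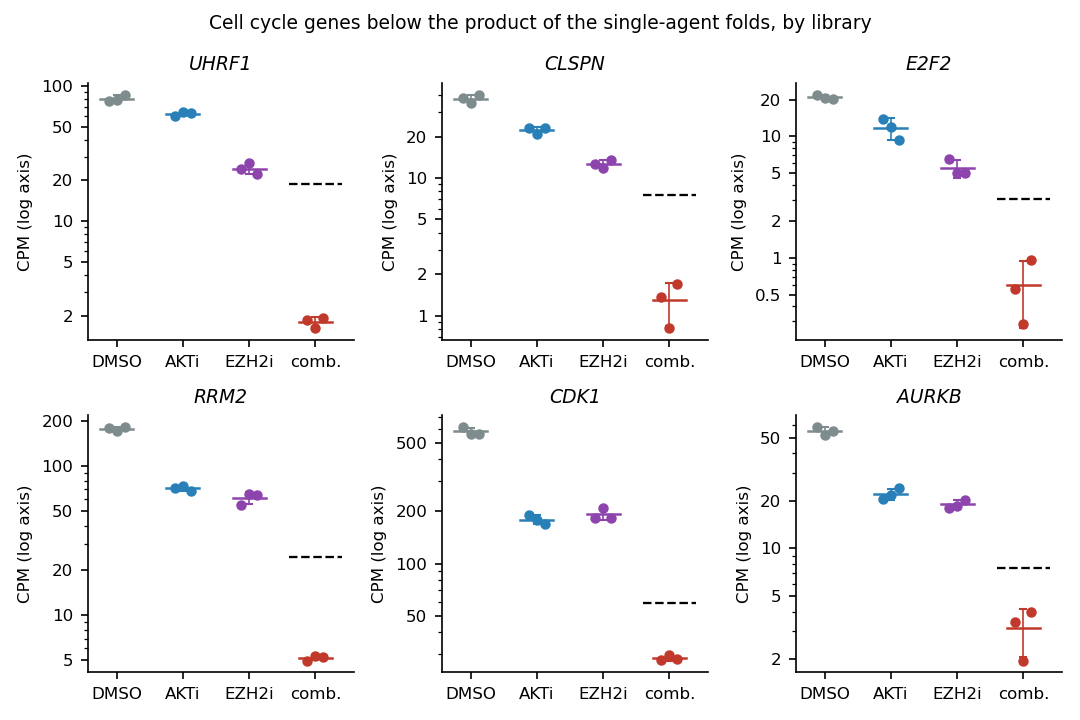
CPM (log axis) of 6 replication and mitosis genes in the 12 libraries. Points are libraries, bars the mean ± SD of 3 libraries, and the dashed line the level predicted by the product of the single-agent folds. The combination points lie below the dashed line in every panel, while on the linear scale the interaction was above 0 for each of these genes but UHRF1.

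The calls of both lists depended on the scale. On the linear scale, where the CPM lost to each agent are added, the losses of RRM2 summed to more than its DMSO level, so the prediction was -45.5 CPM and the observed level lay above it. With additivity defined on that scale, the interaction was above 0 for 26 G1/S genes and below 0 for none, and above 0 for 36 mitotic genes and below 0 for none. UHRF1, for which the linear prediction was 6.28 CPM, stayed below 0 without a call (adjusted p = 0.38, limma on CPM divided by the gene's mean). Of all 811 more than additive genes with a falling sum, 168 were called below 0 on the linear scale, 144 above and 499 neither way.

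Called interactions below 0 outnumbered those above 0 in each metabolic list, as they did over all genes (17.5% below and 10.7% above). Among 18 glycolytic enzymes, 13 had interactions called below 0 and none above, with 10 more than additive and 3 with an unresolved sum. Of the 13, 2 passed the test against a minimum size of 1.5-fold. The median of the list was -0.36 with AKTi, -0.59 with EZH2i and -1.51 in the combination. PKM, the pyruvate kinase of most tumor cells, was 1930, 1894 and 1976 CPM in DMSO, 1483, 1502 and 1557 CPM with AKTi, 1727, 1670 and 1743 CPM with EZH2i and 743, 741 and 696 CPM in the combination. The combination lay below every single-agent library and 1.85-fold below the predicted 1342 CPM (interaction -0.89 ± 0.07, adjusted p = 2.44e-12). GPI, glucose-6-phosphate isomerase, had an interaction of -0.87 ± 0.08, and PFKL, a phosphofructokinase, -0.77 ± 0.09.

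LDHA, the lactate dehydrogenase subunit that favors lactate formation, was 1491, 1454 and 1520 CPM in DMSO, 664, 673 and 682 CPM with AKTi, 553, 588 and 550 CPM with EZH2i and 172, 146 and 164 CPM in the combination (interaction -0.66 ± 0.08). Its interaction was above 0 on the linear scale, at 0.57 of its mean level. HK2, the first enzyme of glycolysis, fell to 26.3, 30.2 and 25.4 CPM from 98.2, 110 and 122 CPM, but the product of the single-agent folds already predicted 26.9 CPM. Its interaction was 0.02 ± 0.11 (adjusted p = 0.908). SLC2A1, the glucose transporter GLUT1, had -0.06 ± 0.10 (adjusted p = 0.695), and LDHB -0.01 ± 0.12 (adjusted p = 0.967). The 95% intervals were -0.20 to 0.24 for HK2, -0.27 to 0.14 for SLC2A1 and -0.25 to 0.23 for LDHB, so departures within those bounds were not excluded. On the linear scale HK2, with a prediction of 4.16 CPM, and LDHB, with 5.42 CPM, were called less than additive. On that scale 6 glycolytic enzymes were called below 0 and 3 above.

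In the TCA cycle, 16 of 25 enzymes were called below 0 and 1 above, with a median interaction of -0.26. The count below 0 was 9 without DMSO replicate B or EZH2i replicate C and 10 without AKTi replicate C. IDH2, the mitochondrial NADP-dependent isocitrate dehydrogenase, was 213, 205 and 228 CPM in DMSO. The single agents left it at 186 to 227 CPM, overlapping DMSO, and the combination brought it to 109, 107 and 102 CPM (interaction -0.90 ± 0.08). MDH2, mitochondrial malate dehydrogenase, had an interaction of -0.70. IDH1, the cytosolic counterpart of IDH2, was the exception above 0, at 0.62 ± 0.07, and was less than additive. It was 682 to 728 CPM in DMSO, 466 to 498 CPM with AKTi, 382 to 397 CPM with EZH2i and 398 to 428 CPM in the combination. The combination thus stayed below DMSO and below AKTi alone. Of 37 respiratory complex I subunits, 13 were called below 0 and none above, a share of 35.1% beside 28.2% of all genes, with NDUFS8 at -0.84 and NDUFS7 at -0.69.

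Of 24 sterol synthesis enzymes and sterol-responsive genes, AKTi lowered 14 and raised 5, and EZH2i lowered 19 and raised 1. Over all 16646 genes AKTi lowered 3643 and raised 3429, and EZH2i lowered 5249 and raised 5421. The interaction was called below 0 for 18 and above 0 for 1, against 17.5% and 10.7% of all genes, and 13 were more than additive. Their median was -0.19 with AKTi, -0.54 with EZH2i, -0.78 for the sum and -1.36 in the combination. INSIG1, which holds SREBP in the ER, was 162, 164 and 168 CPM in DMSO, 153, 147 and 137 CPM with AKTi, 111, 116 and 112 CPM with EZH2i and 44.5, 39.3 and 40.3 CPM in the combination. No arms overlapped, and the interaction was -1.27 ± 0.09 (adjusted p = 2.33e-14). STARD4, a sterol carrier, had -1.14 ± 0.17.

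Of 18 fatty acid synthesis enzymes, 10 were called below 0 and none above. FASN, fatty acid synthase, was 1526, 1782 and 1809 CPM in DMSO. With AKTi it was 1471, 1706 and 1615 CPM, overlapping DMSO, and with EZH2i 1118, 990 and 1048 CPM. The combination libraries held 503, 526 and 471 CPM (interaction -0.98 ± 0.09). FADS2, a fatty acid desaturase, had an interaction of -1.01 ± 0.08 and ELOVL6, an elongase, -0.69 ± 0.19. On the linear scale FASN stayed more than additive, FADS2 and ELOVL6 had no call, and ELOVL6 changed sign.

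More than additive increases numbered 258, against 811 decreases. CD55, which protects cells from complement, was 17.0, 12.7 and 15.4 CPM in DMSO, 21.1, 23.6 and 19.4 CPM with AKTi and 18.9, 15.7 and 17.9 CPM with EZH2i. In the combination it was 90.9, 82.2 and 80.7 CPM, above all other libraries by more than 3-fold (interaction 1.78 ± 0.14, adjusted p = 1.74e-12). Without DMSO replicate B its sum was not resolved. FGFR2, a receptor for fibroblast growth factors, was 1.28, 2.51 and 1.68 CPM in DMSO, unmoved by AKTi at 1.09 to 2.29 CPM, 3.88, 4.85 and 4.69 CPM with EZH2i and 16.8, 17.2 and 17.0 CPM in the combination (interaction 1.98 ± 0.32). Its sum was no longer resolved without DMSO replicate A, DMSO replicate C or AKTi replicate C.

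FOXC1, a forkhead transcription factor of development, and CAMK1D, a calcium-dependent kinase, showed the same order of arms. FOXC1 was 0.579 to 1.18 CPM in DMSO and with AKTi, 2.95 to 4.09 CPM with EZH2i and 9.97 to 11.7 CPM in the combination (interaction 1.77 ± 0.39), and its sum was not resolved without DMSO replicate C or AKTi replicate C. CAMK1D was at or below 0.516 CPM in DMSO and with AKTi, 1.93 to 2.41 CPM with EZH2i and 9.18 to 12.9 CPM in the combination (interaction 2.26 ± 0.70), and its call was lost without DMSO replicate B (interaction 1.51, adjusted p = 0.229). SHISA2, a membrane protein of the ER, had at most 0.148 CPM in DMSO, 2.14 to 2.86 CPM with EZH2i and 48.4, 41.5 and 46.2 CPM in the combination. DMSO held so few counts of SHISA2 that the size of its fitted interaction, 3.51 ± 0.93, depends on the prior count.

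Of 24 FOXO-responsive genes, AKTi raised 20 and lowered 1, and EZH2i raised 18 and lowered 2. Of all 16646 genes, AKTi raised 3429 and lowered 3643, and EZH2i raised 5421 and lowered 5249. The interaction was called above 0 for 6 and below 0 for 5, a share of 45.8% beside 28.2% of all genes. The median was 0.66 with AKTi, 1.34 with EZH2i and 2.07 in the combination. TXNIP, an inhibitor of glucose uptake, exceeded the prediction. It was 99.3, 101 and 106 CPM in DMSO, 206, 196 and 211 CPM with AKTi, 374, 387 and 402 CPM with EZH2i and 1451, 1369 and 1406 CPM in the combination (interaction 0.86 ± 0.08). KLF6, a zinc finger factor, had 0.88 ± 0.15, and BBC3, the BH3-only protein PUMA, 0.81 ± 0.25. SESN3, a sestrin raised by FOXO, fell short, at -0.71 ± 0.08. EZH2i alone and the combination overlapped, at 418 to 465 CPM and 411 to 456 CPM. BMF, another BH3-only protein, rose from 6.60, 5.02 and 6.47 CPM to 78.5, 81.2 and 77.7 CPM with no called interaction on the log2 scale (-0.18 ± 0.17, adjusted p = 0.491). On the linear scale, which predicted 60.2 CPM, it was more than additive.

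Of 29 androgen-responsive genes, AKTi raised 19 and lowered 6, and EZH2i raised 22 and lowered 5. Among all 16646 genes AKTi raised 3429 and EZH2i raised 5421. For the interaction, 17 were called below 0 and 3 above, with 12 less than additive, against 14.1% of all genes, and 7 more than additive. Against a minimum size of 1.5-fold, 7 were called below 0 and 1 above. The median was 0.61 with AKTi, 1.08 with EZH2i, 1.85 for the sum and 1.52 in the combination.

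TRPM8, a cation channel of prostate epithelium, was 113, 131 and 124 CPM with EZH2i and 108, 118 and 107 CPM in the combination, so the 2 arms overlapped although AKTi alone raised the gene from 13.0 to 16.7 CPM in DMSO to 28.0 to 30.1 CPM (interaction -1.06 ± 0.11). MAF, a transcription factor of the AP-1 superfamily, was lower in the combination, at 23.6 to 26.4 CPM, than with EZH2i, at 31.6 to 33.5 CPM (interaction -1.30 ± 0.26). KLK3, which encodes prostate-specific antigen, was 1389, 1338 and 1389 CPM in DMSO and 3961, 3980 and 3881 CPM in the combination, with a small interaction of -0.32 ± 0.07. On the linear scale, 8 androgen-responsive genes were above 0 and 11 below, and KLK3 was at 0.03 of its mean level.

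**Figure D4:**
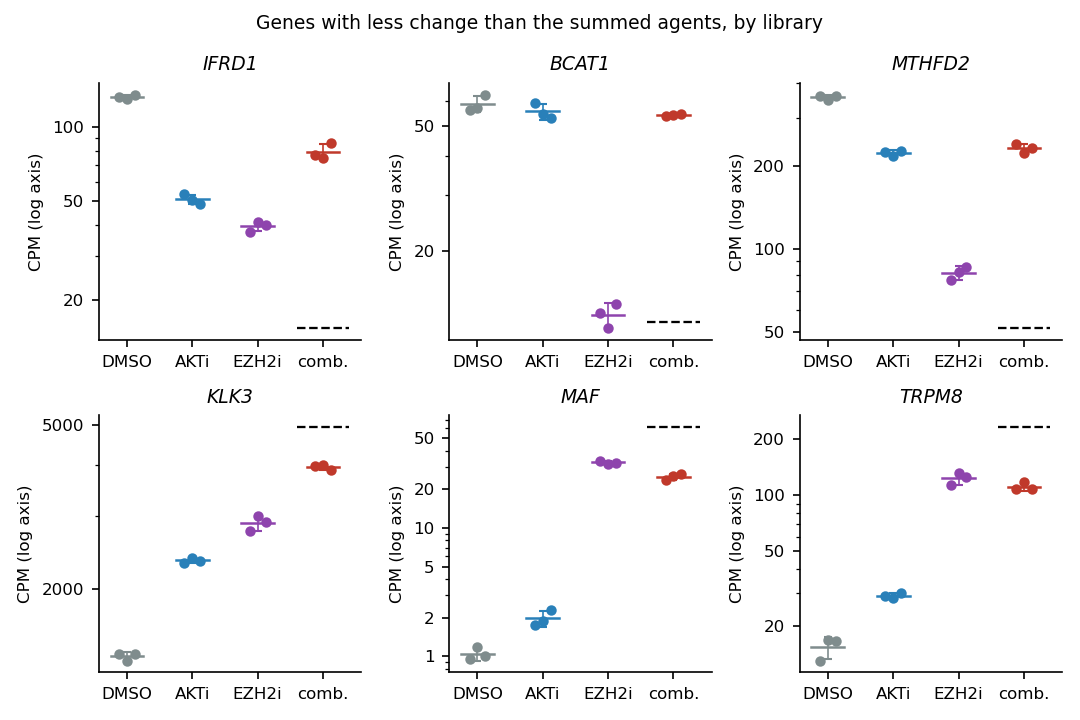
CPM (log axis) of 6 less than additive genes in the 12 libraries, 3 with a falling sum (top) and 3 androgen-responsive genes with a rising sum (bottom). Points are libraries, bars the mean ± SD of 3 libraries, and the dashed line the level predicted by the product of the single-agent folds. The combination lies above the dashed line in the top row and below it in the bottom row.

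Several of the genes ranked highest among the less than additive ones were almost silent in DMSO. AHNAK2, a large scaffold protein, had 0.0738 to 0.135 CPM in DMSO, 0.506 to 1.18 CPM with AKTi, 15.2 to 15.6 CPM with EZH2i and 11.4 to 14.6 CPM in the combination. SHC2, an adaptor of receptor tyrosine kinases, was at or below 0.0959 CPM in DMSO, 0.771 to 1.60 CPM with AKTi, 4.50 to 6.23 CPM with EZH2i and 9.18 to 11.9 CPM in the combination. OPRK1, the kappa opioid receptor, had 0 counts in all 3 DMSO libraries, 4.41 to 4.82 CPM with EZH2i and 7.96 to 9.12 CPM in the combination. For SHC2 and OPRK1 the combination was above both agents, and the interaction turned positive on the linear scale. The fitted interactions of these 3 genes, -3.22, -3.22 and -3.82, rest on 0 to 2 counts per DMSO library and depend on the prior count. OPRK1 lost its call with DESeq2 and without any 1 of the DMSO libraries.

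GAGE12J, a cancer-testis antigen, had 6.22 to 8.27 CPM with AKTi, 5.2 to 7.63 CPM with EZH2i and 2.99, 0 and 3.08 CPM in the combination (interaction -6.27 ± 0.74). It is one of many near-identical copies, between which reads cannot be assigned with certainty. GJB1, the gap junction protein connexin 32, was 0.741, 1.18 and 0.767 CPM in DMSO, 2.24, 2.38 and 1.88 CPM with AKTi, 4.89, 2.51 and 4.73 CPM with EZH2i and 1.88, 1.73 and 1.63 CPM in the combination. The combination thus lay below the EZH2i libraries (interaction -2.50 ± 0.44).

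In other lists, single genes that rose fell short in the same way. ERBB2, the receptor HER2, overlapped between EZH2i, at 299 to 316 CPM, and the combination, at 290 to 315 CPM, with 104 to 112 CPM in DMSO and 176 to 186 CPM with AKTi (interaction -0.74 ± 0.08). Among 16 receptor tyrosine kinases and adaptors under feedback from AKT, 4 were called in each direction, a share of 50% beside 28.2% of all genes. Of 37 lysosome and autophagy genes, 12 were called below 0 and 3 above (40.5%), with 9 less than additive. The less than additive ones included GAA, the lysosomal alpha-glucosidase (-0.74), GRN, progranulin (-0.64), and ULK1, the kinase that starts autophagy (-0.61). Of 26 interferon-stimulated genes, 8 were called below 0 and 1 above. That share, 34.6%, is near the 28.2% of all genes, of which 17.5% were below 0 and 10.7% above. The count below 0 was 5 without DMSO replicate B and 4 without AKTi replicate C. OAS3, of the same list, was more than additive. STAT2, which carries the interferon signal, was 45.5 to 46.8 CPM with EZH2i and 40.9 to 46.6 CPM in the combination (interaction -0.62 ± 0.12).

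Among genes with a falling sum, the combination brought some back toward DMSO. MTHFD2, a mitochondrial folate enzyme and ATF4 target, was 361, 347 and 360 CPM in DMSO, 226, 218 and 226 CPM with AKTi, 76.9, 82.6 and 86.1 CPM with EZH2i and 241, 224 and 233 CPM in the combination. The combination overlapped AKTi alone and was well above EZH2i (interaction 2.18 ± 0.08, adjusted p = 3.51e-22). BCAT1, which starts the breakdown of branched-chain amino acids, fell to 12.7, 11.3 and 13.5 CPM with EZH2i. It was 53.7, 54.2 and 54.4 CPM in the combination, beside 56.3, 56.9 and 62.8 CPM in DMSO and 59.1, 54.6 and 52.8 CPM with AKTi (interaction 2.19 ± 0.11).

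IFRD1, a transcriptional co-regulator, was 132, 130 and 135 CPM in DMSO, 53.4, 50.8 and 48.7 CPM with AKTi, 37.7, 41.3 and 40.2 CPM with EZH2i and 76.9, 74.9 and 85.9 CPM in the combination (interaction 2.37 ± 0.09). The combination lay between the single agents and DMSO, with no overlap. OSBPL6, an oxysterol-binding protein, had an interaction of 2.33 ± 0.26, with 8.11 to 9.18 CPM in the combination and 5.79 to 7.91 CPM in DMSO. It sorted as reversed with library-size or upper-quartile scaling. EIF3CL (interaction 2.04 ± 0.65) is a near copy of EIF3C, and its DMSO libraries ranged so widely, with 27.7 CPM in replicate A and 17.4 CPM in replicate C and far less in replicate B, that its value is uncertain. Its call was lost with DESeq2 (adjusted p = 0.207) and without DMSO replicate A or combination replicate B.

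MYC, the growth-promoting transcription factor, responded in opposite directions to the agents. It was 240, 246 and 254 CPM in DMSO, 386, 410 and 417 CPM with AKTi, 94.3, 89.8 and 102 CPM with EZH2i and 207, 195 and 192 CPM in the combination. No arms overlapped, and the interaction was 0.34 ± 0.08 (adjusted p = 0.00104), which was below 0 on the linear scale. Of 34 MYC-responsive nucleolar genes, 7 were called above 0 and 6 below (38.2%, beside 28.2% of all genes), with a median of -0.06. Their median in the combination, -1.45, was near the sum of -1.42. The E-box CACGTG was in 13 of 30 matched promoters of that list and in 10.2% of all matched promoters. HIF1A, the oxygen-regulated transcription factor, had an interaction of -0.34 ± 0.09, at 216 to 249 CPM with EZH2i and 159 to 175 CPM in the combination.

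The reversed genes with a rising sum had a median interaction of -0.70. CCND1 (ENSG00000110092, chr11:69641087-69654474 in hg38), the G1 cyclin D1, was 308, 314 and 350 CPM in DMSO, 373, 387 and 391 CPM with AKTi and 384, 373 and 373 CPM with EZH2i. The combination libraries held 242, 248 and 239 CPM, below all 9 others (interaction -0.88 ± 0.08, adjusted p = 1.6e-11). ABCB11, the bile salt export pump, was 4.51, 4.35 and 4.41 CPM in DMSO, 6.74 to 7.31 CPM with AKTi, 6.43 to 7.86 CPM with EZH2i and 3.19, 3.29 and 2.42 CPM in the combination (interaction -1.95 ± 0.25). MYORG, a glycosidase, was 13.0, 13.4 and 11.9 CPM in DMSO, above it in all 6 single-agent libraries, at 14.4 to 21.0 CPM, and 5.58, 9.86 and 7.97 CPM in the combination (interaction -1.56 ± 0.20).

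SLC22A31, a predicted membrane transporter, had an interaction of -1.33 ± 0.20 and was raised by AKTi alone. CKMT1B, a mitochondrial creatine kinase with a near-identical copy in CKMT1A, had 37.3, 39.3 and 82.2 CPM with AKTi, so 1 library carried its single-agent rise. The sum was no longer resolved with DESeq2 or without any 1 of AKTi replicate C, DMSO replicates A and B and EZH2i replicates A and B. CBWD3, from a family of near copies, was sorted as reversed in only 9 of 21 alternatives. Scaling mattered for this class more than for the interaction. Library-size scaling moved the median of all genes from 0.06 to 0.26 in the combination and from 0.04 to 0.25 for the sum, and it sorted 188 genes as reversed, of which 77 were among the 174. It kept 54 of the 91 with a falling sum and 23 of the 83 with a rising sum. The ATF4-responsive list held 14 to 17 reversed genes under all alternatives that keep the 0.05 threshold.

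Some lists fell or rose with a share of called genes below the 28.2% of all genes. Of 50 cytosolic ribosomal proteins, 4 were called below 0 and none above (8%), and the median interaction was -0.04. Of 51 mitochondrial ribosomal proteins, 4 were below 0 and 6 above (19.6%), although their median in the combination was -1.16. Proteasome subunits had 6 of 31 below 0 and 2 above, a share of 25.8% that is near that of all genes. PSMD2 and PSMD1, 2 subunits of the regulatory particle, were both at -0.40. Developmental transcription factors silenced by PRC2 in many cell types had 4 of 36 below 0 and 3 above (19.4%). Their median was 0.65 with EZH2i and 0.75 in the combination, and HOXC4, a homeobox factor, fell short at -0.92 ± 0.26. GATA3 had the largest value there, 4.14, but never exceeded 0.846 CPM.

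Among 8 neuroendocrine lineage markers, 2 were called below 0, a share of 25% beside 28.2% of all genes. They included SYT4, a synaptotagmin, at -0.54 ± 0.08. SYT4 was 42.7 to 46.4 CPM in DMSO, 60.7 to 68.0 CPM with AKTi, 769 to 798 CPM with EZH2i and 729 to 810 CPM in the combination. Of 13 PRC2 genes, 2 were below 0 and 1 above, a share of 23.1%, and none was below 0 without DMSO replicate B. EZH2 itself fell with each agent, from 79.6, 74.0 and 73.9 CPM to 22.8, 23.1 and 22.5 CPM in the combination, with no called interaction on the log2 scale (0.24 ± 0.11, adjusted p = 0.109) and a less than additive call on the linear scale. PHF1, an accessory PRC2 subunit, rose beyond the prediction (0.72 ± 0.16). It kept the more than additive class in 13 of 21 alternatives, and in the rest its sum was not resolved.

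Components of PI3K, AKT and mTOR signaling were split, with 7 of 31 below 0 and 6 above, a share of 41.9% beside 28.2% of all genes. PIK3R3, a regulatory subunit of PI3K, was 231, 228 and 253 CPM with EZH2i and only 107, 105 and 98.4 CPM in the combination, against 80.4, 74.7 and 90.5 CPM in DMSO and 76.4 to 85.2 CPM with AKTi. AKTi thus had no visible effect alone and removed most of the EZH2i increase (interaction -1.19 ± 0.09). EIF4EBP1, the translation repressor 4E-BP1 and an ATF4 target, had 1.09 ± 0.09, and RICTOR, the scaffold of mTORC2, 0.86 ± 0.13. AKT1 was more than additive at -0.35 ± 0.08.

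The remaining lists had calls on both sides, with shares called of 42.9% for CDK inhibitors and G1 cyclins, 41.2% for the BCL-2 family, 38.9% for AP-1 and immediate early genes and 33.3% for ERK feedback genes, beside 28.2% of all genes. Of 14 CDK inhibitors and G1 cyclins, 3 were called in each direction. The BCL-2 family had 4 of 17 below 0, including BOK at -0.60, and 3 above. Of 12 ERK feedback genes, 2 were called in each direction, with SPRED2, an inhibitor of RAS signaling, at 0.83 and DUSP4, a MAP kinase phosphatase, at 0.57. AP-1 and immediate early genes had 4 of 18 above 0 and 3 below, with KLF4, a zinc finger factor, at 0.76 and CYR61, a matricellular protein, at -0.80.

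**Figure D5:**
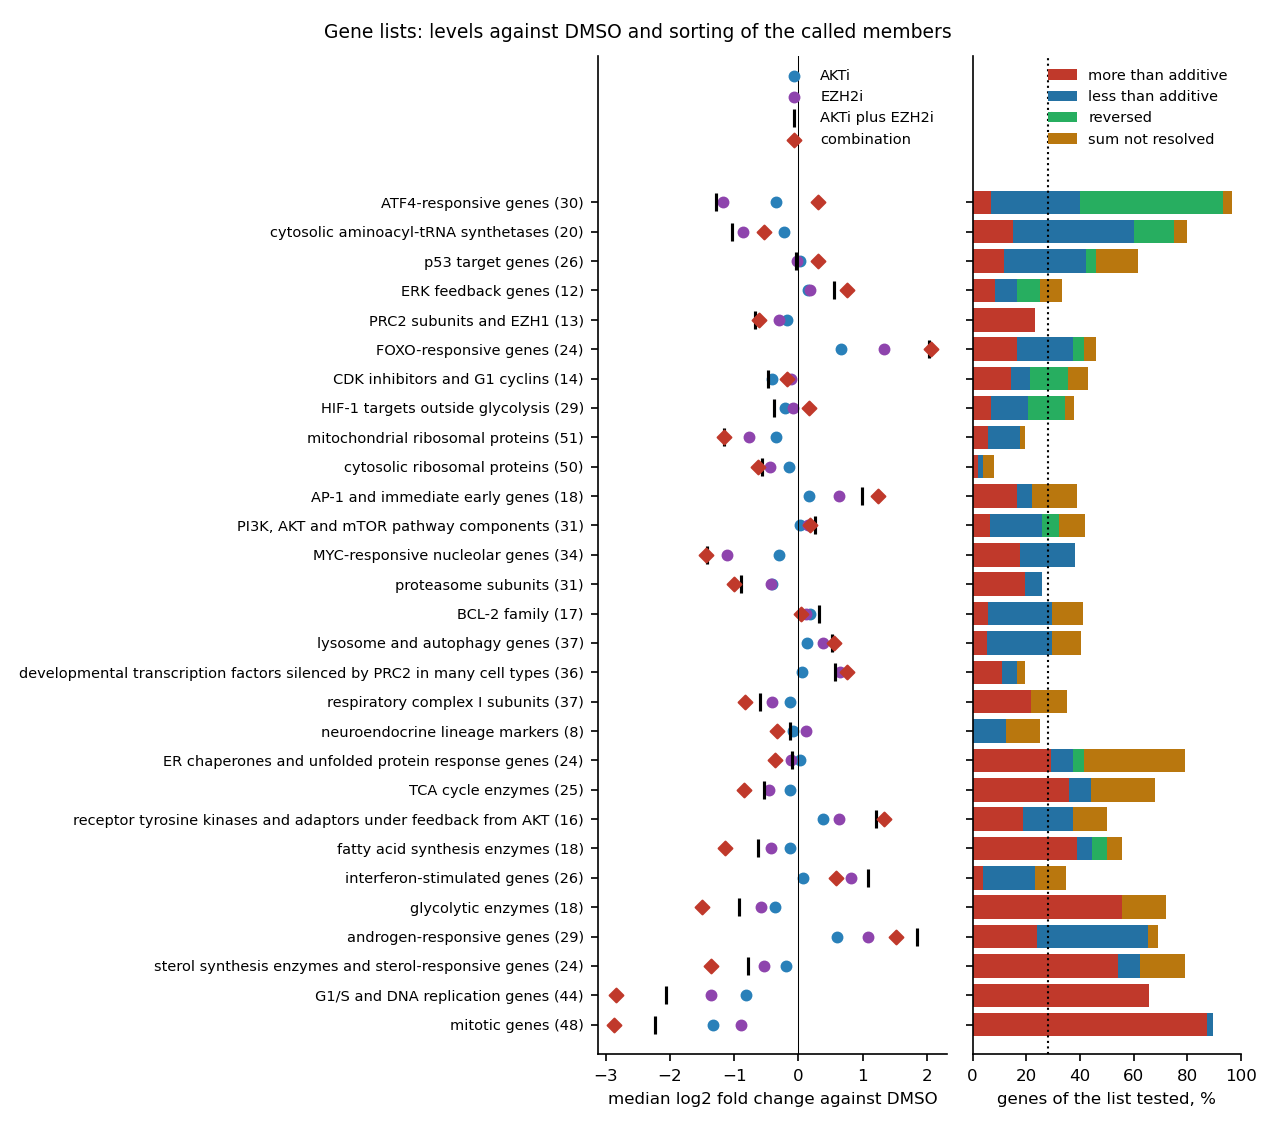
Left, median log2 fold change against DMSO of each gene list with AKTi (blue), EZH2i (purple) and the combination (red), with the summed single agents as a black tick and the number of genes tested in parentheses. Right, percent of each list in the 4 classes of called genes, with the dotted line at 28.2%, the share of all genes called. The combination lies right of the tick for the ATF4-responsive genes and left of it for mitotic, G1/S, sterol and glycolytic genes, of which the mitotic and G1/S calls turned to above 0 on the linear scale.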

How the data were processed

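Polyadenylated RNA from 12 C4.2B libraries was sequenced. Per the labels and the methods, the authors aligned reads to hg38 with STAR, made raw counts per gene with HTSeq and normalized with DESeq2. Versions, annotation and strandedness are not given in the sources used here. The deposited counts were tested with edgeR 4.0.16 in R 4.3.3 (filterByExpr, TMM, 1 mean per arm, quasi-likelihood F test, Benjamini-Hochberg adjustment over 16646 genes, threshold 0.05, glmTreat at 1.5-fold). The deposited normalized counts, a signal made by the authors by dividing counts by a size factor, entered 1 alternative with limma 3.58.1 as log2(value + 1). DESeq2 1.42.0 was another. Other alternatives were scalings, filters, a replicate block, leaving out each library and additivity on the linear scale. The sources name more than 1 sequencing site in all and assign no library to a batch, so none could be modeled. Replicate letters did not pair libraries: same-letter correlations of deviations from arm means ran from -0.058 to 0.069.

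The genes named are the 5 with the largest absolute interaction in each class and direction of the sum (mean log2 CPM of at least 1), up to 4 called genes per list, the study's own metabolic genes and members whose lack of a call is the point. ATF4, ASNS, ATF5, LDHB, KLK3, EZH2, AKT1, BUB3, MARS and IARS were added after their values were seen. Members and lists were chosen with earlier results of these data known. Scripts were tested on simulated data. No p-value is given for a list. Intervals and counts cover counting error and the spread of 3 plates only. Some genes are not reported here.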

Additional observations from a re-analysis of the deposited data

Results flagged for a closer look

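Every called interaction is a difference between the AKTi effect without EZH2i and the AKTi effect with it, tested directly. By that test 4688 genes differed, 1779 with an interaction above 0 and 2909 below.

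Among the genes named by rank, the test gave values above 0 for CHAC1 (3.46), TRIB3 (3.03), DDIT3 (2.84), SLC7A11 (2.52) and FAM129A (2.46), which were reversed. It gave IFRD1 2.37, OSBPL6 2.33, BCAT1 2.19, MTHFD2 2.18 and EIF3CL 2.04, which were less than additive. SHISA2 (3.51), CAMK1D (2.26), FGFR2 (1.98), CD55 (1.78) and FOXC1 (1.77) were more than additive.

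Values below 0 were found for UHRF1 (-3.38), CLSPN (-2.53), DTL (-2.45), FAM111B (-2.44) and E2F2 (-2.34), all more than additive. GAGE12J (-6.27), OPRK1 (-3.82), AHNAK2 (-3.22), SHC2 (-3.22) and GJB1 (-2.50) were less than additive. ABCB11 (-1.95), CKMT1B (-1.80), MYORG (-1.56), CBWD3 (-1.33) and SLC22A31 (-1.33) were reversed. Arms of 3 libraries are too small for a test of single outlying libraries.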

How the results depend on the processing

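All 7 counts (called genes, each direction and the 4 classes) stayed within 1.5 times their value under DESeq2, 3 other scalings, 2 other filters, the authors' normalized values, the replicate block (4627 called) and leaving out any library (4004 to 4666 called). A minimum size of 1.5-fold left 456 called genes, 170 above 0 and 286 below, with 115 more than additive, 201 less than additive, 81 reversed and 59 unresolved. At an adjusted p of 0.01 for the interaction, 1123 were above 0 and 655 unresolved. Sorting by signs alone put 1011 genes in the reversed class and left 0 unresolved. On the linear scale 2773 genes were above 0 and 1766 below, by that alternative's own construction, and 3261 of the 4688 calls were shared. There the interaction changed sign for CLSPN (0.22), DTL (0.26), E2F2 (0.45), RRM2 (0.64), E2F8 (0.60), AURKB (0.70), NUSAP1 (0.22), CDK1 (0.97), ANLN (0.28), LDHA (0.57), ELOVL6 (0.18), PMEPA1 (0.12), GLA (0.11), KLK3 (0.0304), OPRK1 (1.12), SHC2 (0.89) and MYC (-0.23), each as a multiple of the gene's mean level. No other alternative reversed a named gene. The replicate letters do not pair the libraries (4 of 12 lay closest to their own letter), and of the named genes the block ended only the call of THRSP. The list results were less stable: leaving out a library moved 57 list counts by over 1.5 times and left 639 within it, and it moved 118 list medians by more than the spread between libraries and left 230 within it, and the linear scale moved 37 of 58 list counts and 25 of 29 list medians.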
